A study of Mus musculus with 12 samples.

Results

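Small nucleolar RNA (snoRNA) host genes are genes whose introns carry snoRNAs, and 8 of them were followed here through injured mouse kidney: Gas5, Snhg1, Snhg3, Snhg5, Snhg6, Snhg8, Snhg12 and 2410006H16Rik. They were taken by gene name from 54532 genes in each of 2 tables, and all 8 were found in both. They had been listed with their knockout and wild-type levels already known, so these levels and differences are given as a description, without a test. Kidney RNA was sequenced in 12 libraries from C57BL/6 mice in 4 groups of 3, and every group had kidney injury. The first table holds Bcat KO mice and their wild-type controls, both after unilateral ureteral obstruction (UUO), in which the left ureter is tied off. In these knockout mice a Cre transgene under the Ksp-cadherin promoter removes floxed β-catenin from tubular epithelial cells, with the best cover in collecting ducts and distal tubules and a partial one in proximal tubules, so that other kidney cells keep the gene. The second table holds libraries from CD44 KO mice and from their own wild-type controls, both after injury by ischemia and reperfusion of 1 kidney (UIRI), whose pedicle is clipped for a time and then released. The allele of the CD44 KO mice is not described in the sources used here. The mice of the study's methods were young adult males. Levels are in FPKM, in which the fragments counted for a gene are divided by its length in kilobases and scaled for depth. The tables were scaled separately, so that levels were compared within a table and are only set side by side between tables.

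A snoRNA host gene is transcribed and spliced, and the snoRNAs are trimmed out of the removed introns. Box C/D snoRNAs guide the methylation of ribosomal RNA and box H/ACA snoRNAs guide its pseudouridylation. The spliced exons of these genes mostly encode no stable protein. Many host genes begin, like ribosomal protein genes, with a tract of pyrimidines at the 5′ end of the RNA, the TOP tract, and their spliced RNAs are known to be broken down by nonsense-mediated decay while they are being translated. Gas5, named for growth arrest, is the best studied of them: its RNA accumulates when cells stop growing, and it can bind the glucocorticoid receptor. In a kidney sample this RNA comes from every cell type present.

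The start of each gene is shown because a pyrimidine tract there is known from ribosomal protein genes and from many host genes. RefSeq (GRCm38.p6) held a start for 7 of the 8 genes, and Snhg6 had no entry. Each line gives 40 bases around the annotated start on the strand of the RNA. Capitals mark a run of at least 6 bases that are all C or T and that overlaps the 5 bases before to the 5 bases after the start.
2410006H16Rik, chr11:62602857-62602896, plus strand: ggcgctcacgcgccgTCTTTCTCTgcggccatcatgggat
Snhg12, chr4:132308658-132308697, plus strand: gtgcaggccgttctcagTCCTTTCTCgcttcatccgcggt
Snhg1, chr19:8723467-8723506, plus strand: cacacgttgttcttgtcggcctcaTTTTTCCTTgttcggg
Snhg8, chr3:123508317-123508356, minus strand: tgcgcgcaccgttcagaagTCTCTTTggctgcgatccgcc
Gas5, chr1:161035146-161035185, plus strand: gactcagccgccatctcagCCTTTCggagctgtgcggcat
Gas5, the other start, chr1:161034581-161034620, plus strand: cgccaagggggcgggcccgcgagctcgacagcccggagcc
Snhg5, chr9:88522878-88522917, minus strand: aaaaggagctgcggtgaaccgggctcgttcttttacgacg
Snhg3, chr4:132353667-132353706, minus strand: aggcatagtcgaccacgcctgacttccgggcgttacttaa

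Of the 7 genes with an entry, 5 had such a run at an annotated start. The longest runs, of 9 bases, were those of 2410006H16Rik, Snhg12 and Snhg1. Snhg5 and Snhg3 had none that overlapped the 5 bases either side of the start, and Gas5 had one at 1 of its 2 starts. The printed Snhg5 line holds a run of C and T (ttctttt) further into the RNA, which is outside those bases and was not counted. Of all 27025 mouse genes with a RefSeq entry, 24% held a run by the same rule at 1 start or more, and 51.7% of the 58 ribosomal protein genes with an entry did. These matches describe the annotated starts, which can lie some bases away from those used in kidney.

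The bodies of the genes differed in how much of their span was counted as exon, which bears on each level. In the map of exons, Gas5 spans 4118 bases of chromosome 1 (161034422 to 161038539), of which 3760 (91.3%) lie in an exon of at least 1 of 25 annotated transcripts. Of these transcripts, 20 are annotated as retaining an intron. Snhg1 (chromosome 19, 8723475 to 8726443), Snhg8 (chromosome 3, 123507552 to 123508404) and Snhg12 (chromosome 4, 132308623 to 132311024) are exonic over their whole spans of 2969, 853 and 2402 bases. Snhg5 (chromosome 9, 88521050 to 88522929) is exonic over 92.0% of 1880 bases and Snhg6 (chromosome 1, 9941959 to 9944118) over 53.1% of 2160. 2410006H16Rik (chromosome 11, 62602877 to 62604807) has 1 transcript, whose exons cover 462 of 1931 bases (23.9%). For Snhg3 (chromosome 4, 132348014 to 132353686), 821 of 986 exon bases (83.3%) are shared with Rcc1 on the same strand or with Gm17300 on the opposite strand. For Snhg6, 127 exon bases are shared with Mcmdc2 on the opposite strand. Whether the counting used strand is not given in the sources used here, so that Snhg3 is uncertain throughout.

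**Figure D1:**
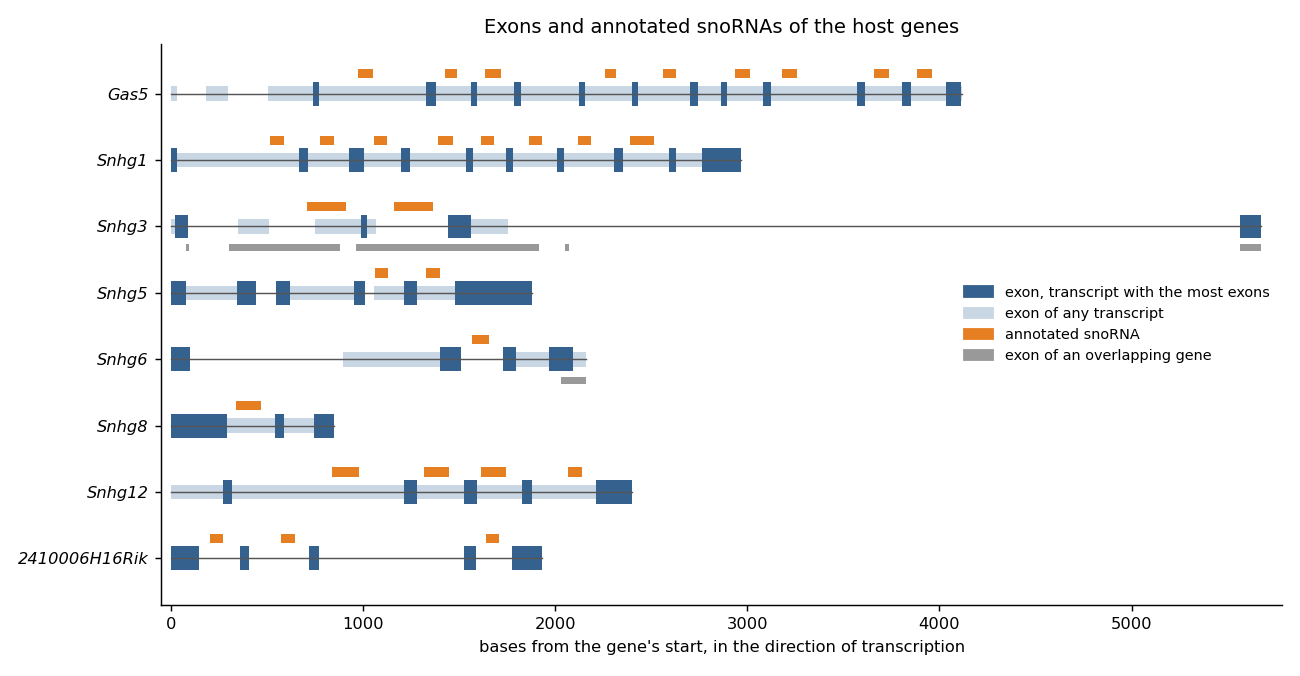
Exons and snoRNAs of the 8 genes, drawn to scale in bases from the start of each gene. Dark blue marks exons of the transcript with the most exons, light blue exons of any transcript, orange the annotated snoRNAs and grey exons of overlapping genes. The snoRNAs of 2410006H16Rik and Snhg6 lie outside all exons of their hosts, and those of Gas5, Snhg1, Snhg5, Snhg8 and Snhg12 overlap exons of at least 1 other transcript of the same gene.

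The tables hold 32 annotated snoRNA entries inside the 8 genes and on their strand: 10 in Gas5, 8 in Snhg1, 5 in Snhg12, 3 in 2410006H16Rik, 2 each in Snhg3 and Snhg5, and 1 each in Snhg6 and Snhg8. Of the Gas5 entries, 1 is named Mir5117, a microRNA name, though the table lists it as a snoRNA. Entries for Snord80 and for Snora16a appear 2 times at nearly the same place. Each of the 32 lies in an intron of at least 1 transcript. The sequences of the snoRNAs of 4 hosts are shown because they are what these genes carry, and because those of 2410006H16Rik and Snhg6 were the only ones with reads of their own. They were read from GRCm38. In box C/D snoRNAs the capitals mark box C (TGATGA) and box D (CTGA), and in Snora24, a box H/ACA snoRNA, the ACA that lies 3 bases from the end.
Snord49a, in 2410006H16Rik, chr11:62603450-62603521, plus strand: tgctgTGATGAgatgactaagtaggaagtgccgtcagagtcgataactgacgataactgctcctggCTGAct
Snord49b, in 2410006H16Rik, chr11:62603079-62603150, plus strand: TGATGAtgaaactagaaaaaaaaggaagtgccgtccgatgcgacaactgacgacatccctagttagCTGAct
Snord65, in 2410006H16Rik, chr11:62604515-62604586, plus strand: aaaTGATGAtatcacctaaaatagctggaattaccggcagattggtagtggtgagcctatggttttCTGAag
Snord87, in Snhg6, chr1:9942463-9942549, minus strand: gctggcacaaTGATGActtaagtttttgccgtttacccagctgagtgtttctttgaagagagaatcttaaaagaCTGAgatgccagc
Snord50a, in Snhg5, chr9:88521529-88521600, minus strand: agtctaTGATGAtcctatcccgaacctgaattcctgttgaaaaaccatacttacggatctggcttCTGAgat
Snord50b, in Snhg5, chr9:88521797-88521868, minus strand: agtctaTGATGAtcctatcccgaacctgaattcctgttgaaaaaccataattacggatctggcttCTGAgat
Snora24, in Snhg8, chr3:123507937-123508066, minus strand: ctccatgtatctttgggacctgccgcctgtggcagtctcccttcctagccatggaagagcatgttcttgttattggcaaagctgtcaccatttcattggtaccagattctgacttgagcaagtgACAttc

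Snord50a and Snord50b differ at 1 of 72 bases. Of the 32 entries, 27 overlap exons of their host, and all 27 are listed at 0 FPKM in all 12 libraries. Of the 5 outside host exons, 4 had reads: Snord49a had 75 reads over the 12 libraries (0 to 11 per library), Snord65 had 47 (0 to 16), Snord49b had 25 (0 to 4) and Snord87 had 16 (0 to 4). The fifth, Snora73b of Snhg3, lies within exons of another gene and is listed at 0. Over the whole table, 276 of 1507 snoRNA entries were above 0 in at least 1 library. How reads that fall on a host and its snoRNA at once were counted is not given in the sources used here, and its part in these zeros was not tested. The host genes' values, and not those of the snoRNAs, are therefore described from here on.

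Between 15940405 and 20737443 reads per library had been assigned to genes. In the knockout checks, Ctnnb1, which encodes β-catenin, was at 76.0 ± 7.55 FPKM (SD, n = 3) in Bcat KO mice and 92.1 ± 5.95 FPKM (n = 3) in their controls, and the groups did not overlap, though limma did not call it (adjusted p = 0.189). Cd44 was at 14.9 ± 3.62 FPKM in the CD44 KO group and 18.0 ± 1.82 FPKM in their controls, with overlapping groups, so that the gene's total does not check the CD44 KO label. This group is therefore called the libraries labelled CD44 KO. In the UUO table, where Cd44 was not the target, it was at 22.9 ± 1.31 FPKM in Bcat KO mice and 37.4 ± 3.72 FPKM in controls (difference −0.68, adjusted p = 0.0181, limma). Markers of tubule cells and macrophages differed between knockout and control in both tables and are given below. In whole tissue, fewer cells of a type and less RNA per cell cannot be told apart. Replicates of the UUO groups are separate mice per the study, and for the UIRI groups nothing states it, so that their p-values rest on the spread between these samples, which may be technical.

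The host genes were expressed at moderate levels, except Snhg3. In wild-type kidneys after UUO, 2410006H16Rik had 20.2 ± 1.24 FPKM (SD, n = 3), Gas5 18.4 ± 2.01, Snhg6 17.1 ± 2.18, Snhg5 7.53 ± 1.33, Snhg8 6.80 ± 1.47, Snhg1 5.78 ± 0.395 and Snhg12 3.79 ± 0.662. In this order, the first 3 overlapped their neighbours, Snhg6 was above Snhg5 in every mouse, Snhg5, Snhg8 and Snhg1 overlapped, and Snhg1 was above Snhg12 in every mouse. In wild-type kidneys after UIRI, 2410006H16Rik had 80.9 ± 5.13 FPKM, Gas5 35.1 ± 3.48, Snhg8 29.2 ± 7.42, Snhg6 26.2 ± 1.12, Snhg5 10.5 ± 0.955, Snhg1 9.92 ± 1.23 and Snhg12 9.40 ± 0.550. Here 2410006H16Rik stood above Gas5 in every library, and Snhg6 above Snhg5, and the other neighbours in this order overlapped. The order rests on the annotated length: Gas5, at 3760 bases, had 1075 to 2704 reads per library, and 2410006H16Rik, at 462 bases, had 155 to 735. Snhg3 had 0 to 7 reads per library and was listed at 0 in 4 of the 12, including all 3 wild-type kidneys after UUO. It fell below the filter of a mean of 0.5 FPKM in both tables, and 7 of the 8 genes passed it.

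**Figure D2:**
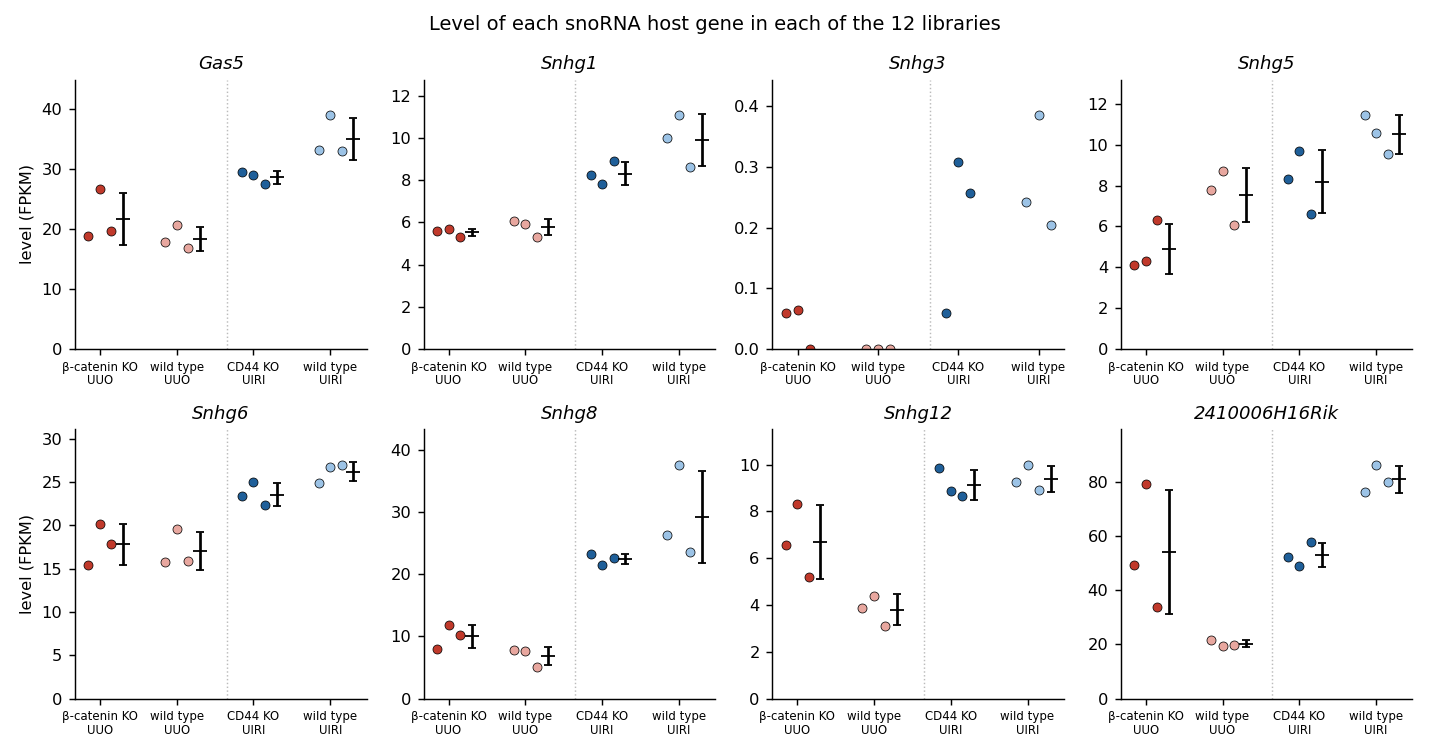
Level of each gene in FPKM (vertical axes from 0, each gene on its own scale) in each of the 12 libraries, as points grouped by genotype and injury; black bars show the mean ± SD of 3 libraries, and the dotted line separates the 2 tables. 2410006H16Rik lies above its controls in all 3 Bcat KO mice and below its controls in all 3 libraries labelled CD44 KO.

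Bcat KO mice were compared with their controls to see which host genes differed after UUO when tubular cells lacked β-catenin. 2410006H16Rik, host of Snord49a, Snord49b and Snord65, had the largest difference of the 7: it was 2.68-fold higher in Bcat KO mice. Snhg12 and Snhg8 were also above their controls in every mouse, by 1.76-fold and 1.47-fold. Gas5, Snhg1 and Snhg6 overlapped their controls, and Snhg5 was lower on average, with overlap. Differences below are in log2(FPKM + 1), Bcat KO minus wild type, with a standard error from limma over 3 mice against 3, and are smaller than log2 folds for low genes.

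2410006H16Rik was at 49.2, 79.3 and 34.0 FPKM in the 3 Bcat KO mice and at 21.6, 19.3 and 19.7 FPKM in the controls. All 3 Bcat KO values lay above all controls, and they differed among themselves more than the controls did (54.2 ± 23.1 against 20.2 ± 1.24 FPKM). The difference was 1.30 (standard error 0.28), and 2.64% of the 16166 genes tested had a larger one in either direction. Without Bcat KO mouse 2, the highest, it was 0.98. In the limma fit over all genes, 2410006H16Rik was the 1 of 7 host genes at an adjusted p under 0.05. It kept this call in 2 of 6 fits with 1 library left out. The list was chosen with these values known, so these counts are a description and no test. Over all genes tested, 10.6% were called in this comparison, 6.21% as higher (1004 genes) and 4.36% as lower (705 genes), a split that became 570 higher and 1178 lower with FPKM rescaled to the same total in every library.

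Snhg12, whose introns carry box H/ACA snoRNAs such as Snora44 and Snora61 and the box C/D Snord99, was at 6.56, 8.32 and 5.18 FPKM in Bcat KO mice and at 3.88, 4.40 and 3.09 FPKM in controls. The difference was 0.67 (standard error 0.18). The groups did not overlap, and mouse 2 was the highest Bcat KO mouse here too. Snhg8, host of Snora24, was at 8.04, 11.8 and 10.2 FPKM in Bcat KO mice and at 7.73, 7.57 and 5.11 FPKM in controls, a difference of 0.50 (standard error 0.19). The gap between the lowest Bcat KO mouse and the highest control was small beside the spread within each group. In all, 3 of 7 host genes were higher without overlap, and none was lower without overlap. Over all genes tested, 19.6% were higher and 15.9% lower without overlap.

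Gas5 was at 18.8, 26.6 and 19.6 FPKM in Bcat KO mice and at 17.8, 20.7 and 16.8 FPKM in controls, a difference of 0.21 (standard error 0.16). Its 3 values in each group overlapped, and without Bcat KO mouse 2 the difference was 0.06. Snhg6, host of Snord87, was at 15.4, 20.1 and 17.9 FPKM against 15.7, 19.6 and 15.9 FPKM, a difference of 0.06 (standard error 0.14). Snhg1, which carries 8 annotated snoRNAs including Snord22, was at 5.58, 5.67 and 5.33 FPKM against 6.07, 5.93 and 5.33 FPKM, a difference of −0.05 (standard error 0.10). For both genes the difference was below its standard error.

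Snhg5, host of Snord50a and Snord50b, went the other way, at 4.10, 4.29 and 6.31 FPKM in Bcat KO mice and 7.80, 8.70 and 6.09 FPKM in controls. Bcat KO mouse 3 lay above the lowest control, so that the groups overlapped. The difference was −0.54 (standard error 0.18), and −0.70 without that mouse. Over the 7 host genes, 5 differences were above 0 and 2 below. Their median was 0.21, beside 0.01 over all genes tested, and 0.06 without Bcat KO mouse 2. Rescaling FPKM to the same total moved the median of all genes to −0.16 after UUO and to −0.10 after UIRI. Relative to the median of all genes, the median of the 7 host genes after UUO was 0.20 with FPKM as deposited and 0.16 rescaled, and Snhg6 was the host gene whose difference changed sign, to −0.15.

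Libraries labelled CD44 KO were compared with their controls to see which host genes differed after UIRI. All 7 host genes were lower on average in the libraries labelled CD44 KO, by −0.04 to −0.60 in log2(FPKM + 1). 2410006H16Rik was again the furthest from its controls, now lower, with controls 1.53-fold above the libraries labelled CD44 KO. Gas5 and Snhg8 were also below their controls in every library, by 1.22-fold and 1.30-fold.

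2410006H16Rik was at 52.1, 48.9 and 58.0 FPKM in the libraries labelled CD44 KO and at 76.3, 86.5 and 80.1 FPKM in controls. The gap between the groups exceeded the spread within each, and the difference was −0.60 (standard error 0.10). Of the 16113 genes tested, 9.89% had a larger difference in either direction. In the limma fit it was again the 1 of 7 host genes at an adjusted p under 0.05, a description for the same reason. In this comparison 6.21% of the genes tested were called, 4.02% as higher (648 genes) and 2.19% as lower (353 genes), and with FPKM rescaled 215 were higher and 470 lower. Leaving out any 1 library, except library 2 of those labelled CD44 KO, left 1 to 10 called genes. With each library left out in turn, the difference of 2410006H16Rik lay between −0.55 and −0.67, and it was called in 1 of 6 such fits.

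Gas5 was at 29.5, 29.0 and 27.5 FPKM in the libraries labelled CD44 KO and at 33.1, 39.1 and 33.0 FPKM in controls. The highest value was that of control 2, and without it the difference of −0.28 (standard error 0.09) was −0.20. Snhg8 was at 23.2, 21.5 and 22.7 FPKM in the libraries labelled CD44 KO and at 26.3, 37.6 and 23.6 FPKM in controls. Its groups were separated by a small margin, and control 2 made most of the difference of −0.34 (standard error 0.17): without it the value was −0.14. In all, 3 of 7 host genes were lower without overlap and none was higher without overlap. Over all genes tested, 14.5% were lower and 19.1% higher without overlap.

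Snhg5 was at 8.31, 9.67 and 6.60 FPKM in the libraries labelled CD44 KO and at 11.5, 10.6 and 9.55 FPKM in controls, and 1 library labelled CD44 KO lay above 1 control. The difference was −0.34 (standard error 0.14), and −0.21 without library 3 of those labelled CD44 KO, the lowest. Snhg1 was at 8.25, 7.82 and 8.90 FPKM against 10.01, 11.1 and 8.65 FPKM, a difference of −0.22 (standard error 0.11). Snhg6 was at 23.4, 25.0 and 22.3 FPKM against 24.9, 26.7 and 27.0 FPKM, a difference of −0.15 (standard error 0.08). These groups touched by 1 value each. Snhg12 was at 9.86, 8.86 and 8.66 FPKM against 9.27, 9.9998 and 8.92 FPKM, with values that interleaved and a difference of −0.04 (standard error 0.09). The median of the 7 differences was −0.28, beside 0.00 over all genes tested. Without control 2 it was −0.15.

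**Figure D3:**
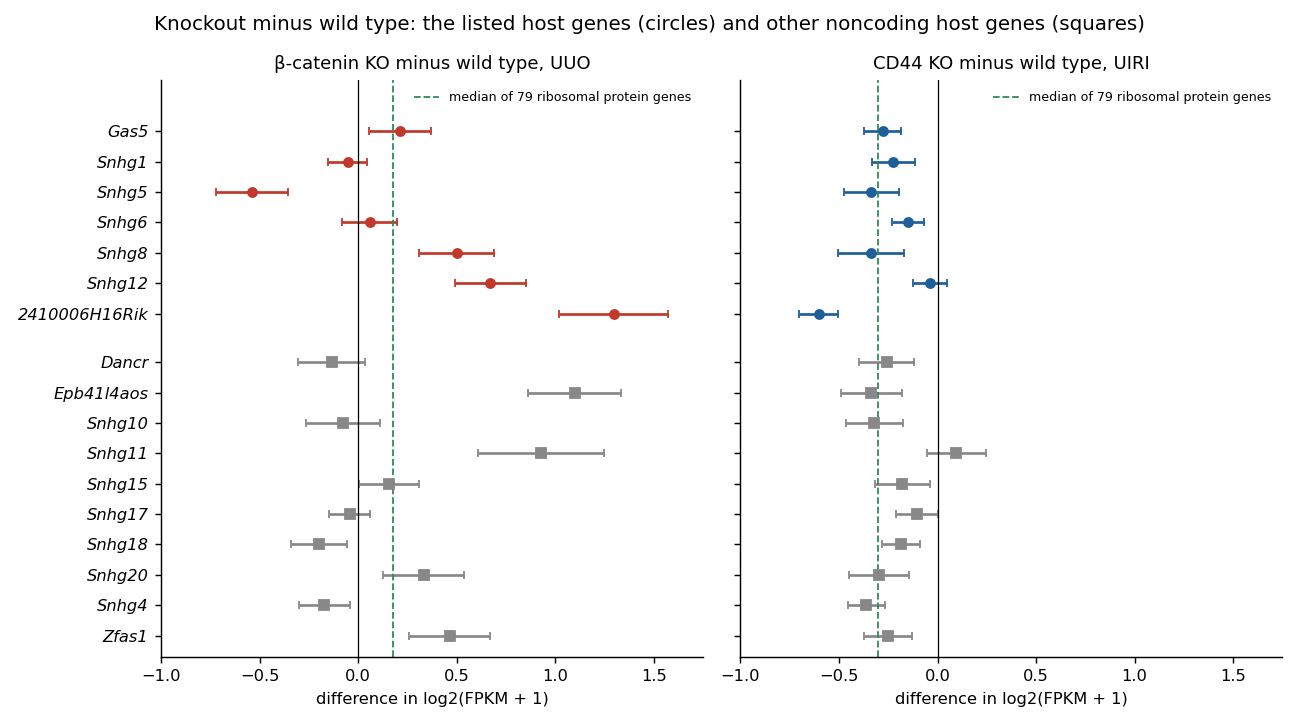
Knockout minus wild type in log2(FPKM + 1), with bars of 1 standard error (3 libraries against 3), for the 7 host genes that passed the filter (circles) and 10 other noncoding snoRNA host genes (grey squares); the dashed line is the median of 79 ribosomal protein genes. After UUO the differences spread from −0.54 (Snhg5) to 1.30 (2410006H16Rik), and after UIRI all circles lie below 0.

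The 2 comparisons have no libraries in common, and their differences can be set side by side. 2410006H16Rik stood at 1.30 after UUO and −0.60 after UIRI, and Snhg8 at 0.50 and −0.34, without overlap in either table. The difference between the tables was not tested, because each was scaled on its own and injury and knockout change together. Of 15489 genes tested in both tables, 0.575% were higher without overlap in Bcat KO mice and lower without overlap in the libraries labelled CD44 KO. Gas5 (0.21 and −0.28) and Snhg6 (0.06 and −0.15) also had opposite signs, with overlap after UUO. Snhg12 was higher after UUO and close to 0 after UIRI (0.67 and −0.04). Snhg5 was below 0 in both (−0.54 and −0.34), as was Snhg1 (−0.05 and −0.22).

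Another 12 noncoding snoRNA host genes were found in the tables, and 10 passed the filter. They were listed from general knowledge, but with earlier results of these data known, so that their p-values are a description. Snhg9 and Snhg14 were below it in both tables. After UUO, 1 of 10 was called: Epb41l4aos rose in Bcat KO mice, with 33.9 ± 11.9 FPKM against 14.8 ± 2.25 FPKM (SD, n = 3), a difference of 1.10 (standard error 0.24, adjusted p = 0.0310, limma). Snhg11 was at 13.3 ± 3.61 FPKM against 6.79 ± 3.34 FPKM (adjusted p = 0.103, limma), and Zfas1, which carries box C/D snoRNAs, at 10.6 ± 2.94 FPKM against 7.34 ± 1.49 FPKM (adjusted p = 0.181, limma). Of the 10 differences, 5 were above 0, and their median was 0.06 (−0.12 with FPKM rescaled). After UIRI, limma called none of the 10 (1 was lower at an unadjusted p under 0.05, and voom called none), 9 differences were below 0, and the median was −0.26. Snhg4, at 2.69 ± 0.177 FPKM against 3.75 ± 0.349 FPKM, had the smallest p there (adjusted p = 0.0693, limma). Snhg18 was at 33.3 to 40.3 FPKM on average in the 4 groups and passed the test in neither table. Epb41l4aos after UIRI was at 35.2 ± 6.05 FPKM against 44.4 ± 5.25 FPKM (difference −0.34, adjusted p = 0.213, limma).

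Protein-coding genes can host snoRNAs as well. By the annotation, 229 such genes other than ribosomal protein genes held a snoRNA on their strand. Of 172 tested after UUO, 5 were higher and 5 lower in Bcat KO mice by limma, beside 10.6% of all genes called, with a median of −0.03. Of 174 tested after UIRI, 10 were higher and none lower in the libraries labelled CD44 KO, beside 6.21% of all genes called, with a median of 0.08. Rescaled medians of this list were not computed. The median after UIRI was above 0 with FPKM as deposited, while that of the 7 host genes described here was below it. Tomm20, a subunit of the mitochondrial import receptor, rose in both tables, from 20.7 ± 0.266 to 30.0 ± 1.62 FPKM after UUO (adjusted p = 0.0235, limma) and from 23.9 ± 1.96 to 34.3 ± 1.71 FPKM after UIRI (adjusted p = 0.0348, limma).

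Ribosomal protein genes, which are known for the TOP tract, were set beside the host genes in each library. All 79 genes of the cytosolic ribosome were measured. After UUO their median difference was 0.18 in Bcat KO mice, with 64 of 79 differences above 0, but with FPKM rescaled it was −0.04, with 34 of 79 above 0. Relative to the median of all genes it was 0.17 as deposited and 0.12 rescaled. Without Bcat KO mouse 2 the median with FPKM as deposited was 0.11. Of the 79 genes, 12 were higher and 0 lower without overlap after UUO, beside 19.6% and 15.9% of all genes tested. limma called none of them (11 were higher at an unadjusted p under 0.05), and limma with voom called 3 as higher. Rpl28 had the smallest p, at 197 ± 51.0 FPKM against 111 ± 9.28 FPKM (adjusted p = 0.0571, limma). After UIRI their median was −0.30 in the libraries labelled CD44 KO, with 1 of 79 above 0 and 51 of 79 lower without overlap, beside 14.5% of all genes tested. That median was −0.43 with FPKM rescaled and −0.20 without control 2. limma called none of these either (23 were lower at an unadjusted p under 0.05), nor did voom, while limma on rescaled FPKM called 6 as lower. Rps24 was at 91.6 ± 6.20 FPKM against 133 ± 24.8 FPKM (adjusted p = 0.0757, limma). The summed level of the 79 genes was 15105 to 19160 FPKM in Bcat KO mice and 13661 to 17307 FPKM in their controls, which overlap. It was 22456 to 24643 FPKM in the libraries labelled CD44 KO and 26229 to 35077 FPKM in their controls, which do not.

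Across libraries the mean of the 7 host genes went with the mean of the 79 ribosomal protein genes, both in log2(FPKM + 1). Over the 6 UIRI libraries Pearson's r was 0.96 (Spearman's rho 1.00), and over the 6 UUO libraries 0.86 (rho 0.83). Without the 2 libraries farthest from the median of the ribosomal mean these became 0.99 and 0.45. Of 15487 genes, 0.413% had a higher r with the ribosomal mean in the UIRI table and 4.69% in the UUO table. These shares set a mean of 7 genes beside single genes, the ribosomal protein genes among them, and so do not compare like with like. For single host genes the share ran from 0.194% (Gas5) to 10.5% (Snhg5) in the UIRI table. In the UUO table it ran from 2.54% (Snhg12) to 76.4% (Snhg5). The libraries of a group share genotype and injury, so r of the mean of the 7 host genes was also taken over 12 libraries centred on their group, where it was 0.80. These are descriptions of so few libraries, which also share the scaling of FPKM. With FPKM rescaled to the same total, r was 0.97 in the UIRI table, 0.49 in the UUO table (rho −0.03) and 0.66 centred on group. The UUO relation thus depended on how depth was scaled.

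**Figure D4:**
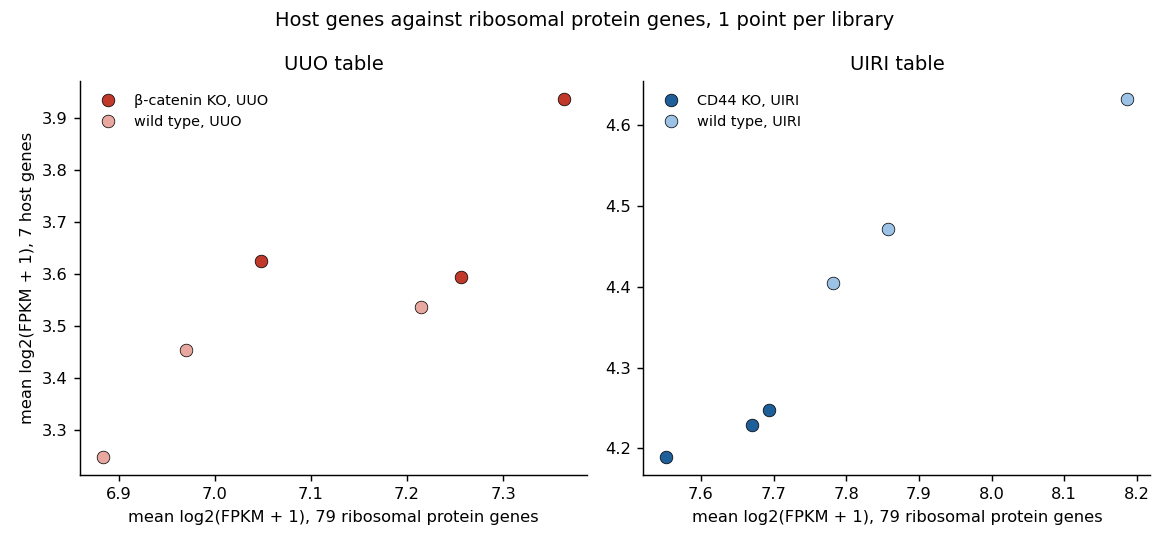
Mean of the 7 host genes against the mean of 79 ribosomal protein genes, both in log2(FPKM + 1), 1 point per library, for the UUO table (left) and the UIRI table (right), on separate axes that do not start at 0. In the UIRI table the 3 libraries labelled CD44 KO lie at the lower left of all 3 controls, and in the UUO table Bcat KO mouse 2 lies at the upper right.

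Host genes differed in how closely they went with the ribosomal protein genes. Over 12 libraries centred on their table, r was 0.89 for Gas5, 0.68 for 2410006H16Rik and 0.03 for Snhg5. With FPKM rescaled to the same total these were 0.88, 0.42 and 0.48, so that the order of 2410006H16Rik and Snhg5 depended on the scaling. In the UUO table alone r was −0.50 for Snhg5, and 0.22 with FPKM rescaled. The values that follow are for FPKM as deposited. Among the 21 pairs of host genes, r over the same 12 libraries had a median of 0.40 and was above 0 in 18 pairs. The closest pair was Snhg12 with 2410006H16Rik (0.88), and the lowest r was that of Snhg5 with Snhg12 (−0.55). Genes most like the mean of the host genes were ranked by r over the 12 centred libraries. The first 10 were Rpl22 (0.95), Rps25, Rps21, Rpl37a, Rpl36a, the lincRNA Gm34961 (0.93), Vps28, Rpl37, Rpl35a and Rps16. Of these, 8 encode ribosomal proteins, as did 31 of the first 100. The comparison with ribosomal protein genes had been chosen beforehand, and the ranking uses the same libraries, so that it is a description. Centring on the table leaves the differences between groups in these r values. The ranking was not repeated with FPKM rescaled. The median r was 0.78 over the 79 ribosomal protein genes and −0.02 over all 15480 genes.

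Genes that act on ribosome production, snoRNAs or host RNAs were described next, from lists written from general knowledge. These lists and the cell type markers below were chosen with earlier results of these data known. The p-values of their genes are therefore a description. With FPKM rescaled, the median of all genes was −0.16 after UUO and −0.10 after UIRI, and the rescaled list medians are read beside these. Of 17 translation factors and other TOP genes, Eif4b, an initiation factor, rose in Bcat KO mice from 75.5 ± 4.86 to 106 ± 6.20 FPKM (adjusted p = 0.0445, limma). The list's median was 0.07 after UUO (−0.15 with FPKM rescaled) and −0.05 after UIRI, where limma called none (2 were higher at an unadjusted p under 0.05, and voom called none). On rescaled FPKM limma called none of this list after UUO, so that Eif4b was not called. Eef2, elongation factor, was at 646 ± 87.5 FPKM against 454 ± 46.8 FPKM in Bcat KO mice and controls (adjusted p = 0.107, limma).

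Of 19 core and assembly proteins of snoRNA particles, limma called none in either table. After UUO 4 were higher and 1 lower at an unadjusted p under 0.05, and voom called 1 as higher. After UIRI 2 were higher at an unadjusted p under 0.05, and voom called none. Their medians were −0.03 and 0.08 (−0.22 and −0.04 with FPKM rescaled). Relative to the median of all genes, the rescaled medians were −0.06 and 0.06. Nop10, a small subunit of box H/ACA particles, was at 50.0 ± 9.52 FPKM in Bcat KO mice and 31.4 ± 3.95 FPKM in controls (adjusted p = 0.0509, limma), while Nop58, of box C/D particles, was at 3.55 ± 0.740 FPKM and 5.30 ± 0.601 FPKM (adjusted p = 0.082, limma).

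Of 28 genes of ribosomal RNA transcription and processing, 2 rose in the libraries labelled CD44 KO: Nol6, from 9.03 ± 0.678 to 12.9 ± 0.609 FPKM (adjusted p = 0.0347, limma), and Utp4, from 9.10 ± 0.174 to 13.1 ± 1.77 FPKM (adjusted p = 0.0486, limma), both of the small subunit processome. The list's median was 0.15 there, with 25 of 28 above 0. With FPKM rescaled it was 0.03, with 17 of 28 above 0, and neither Nol6 nor Utp4 was called. Relative to the median of all genes it was 0.15 as deposited and 0.13 rescaled. After UUO the list's median was 0.02 (−0.16 with FPKM rescaled), with none called (1 was higher and 1 lower at an unadjusted p under 0.05, and voom called none).

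Of 16 nonsense-mediated decay factors limma and voom called none in either table, and the medians were 0.04 after UUO and 0.00 after UIRI (−0.17 and −0.11 with FPKM rescaled, where limma called 1 as lower after UUO). Relative to the median of all genes, the rescaled medians were −0.006 and −0.009. At an unadjusted p under 0.05, 1 was higher after UUO (Smg6, 7.38 ± 0.439 FPKM against 5.83 ± 0.458 FPKM) and none after UIRI. Of 11 tested genes of the integrated stress response, 1 was called in each table: Sesn2 rose in Bcat KO mice, from 15.8 ± 3.08 to 25.4 ± 2.36 FPKM (adjusted p = 0.0369, limma), and Vldlr in the libraries labelled CD44 KO, from 5.28 ± 0.296 to 9.13 ± 0.521 FPKM (adjusted p = 0.0267, limma). The list's medians were 0.28 and 0.09 (0.08 and −0.03 with FPKM rescaled). On rescaled FPKM limma called none of this list after UUO, so that Sesn2 was not called.

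Of 14 mTOR pathway and TOP translation regulators, Mtor, the kinase that controls the translation of TOP RNAs, rose in the libraries labelled CD44 KO, from 6.78 ± 0.129 to 11.96 ± 1.62 FPKM (adjusted p = 0.0267, limma). In Bcat KO mice it was at 14.98 ± 1.44 FPKM against 9.997 ± 1.51 FPKM (adjusted p = 0.0502, limma), and none of the 14 was called there (5 were higher at an unadjusted p under 0.05, and voom called 1 as higher). Larp1, which binds the TOP tract, was at 23.7 ± 1.56 FPKM in the libraries labelled CD44 KO and 18.0 ± 1.60 FPKM in controls (adjusted p = 0.0661, limma). The medians were 0.20 after UUO and 0.12 after UIRI. With FPKM rescaled both were 0.01, with 7 of 14 above 0 in each table. Relative to the median of all genes, the medians were 0.19 and 0.12 as deposited and 0.17 and 0.12 rescaled.

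**Figure D5:**
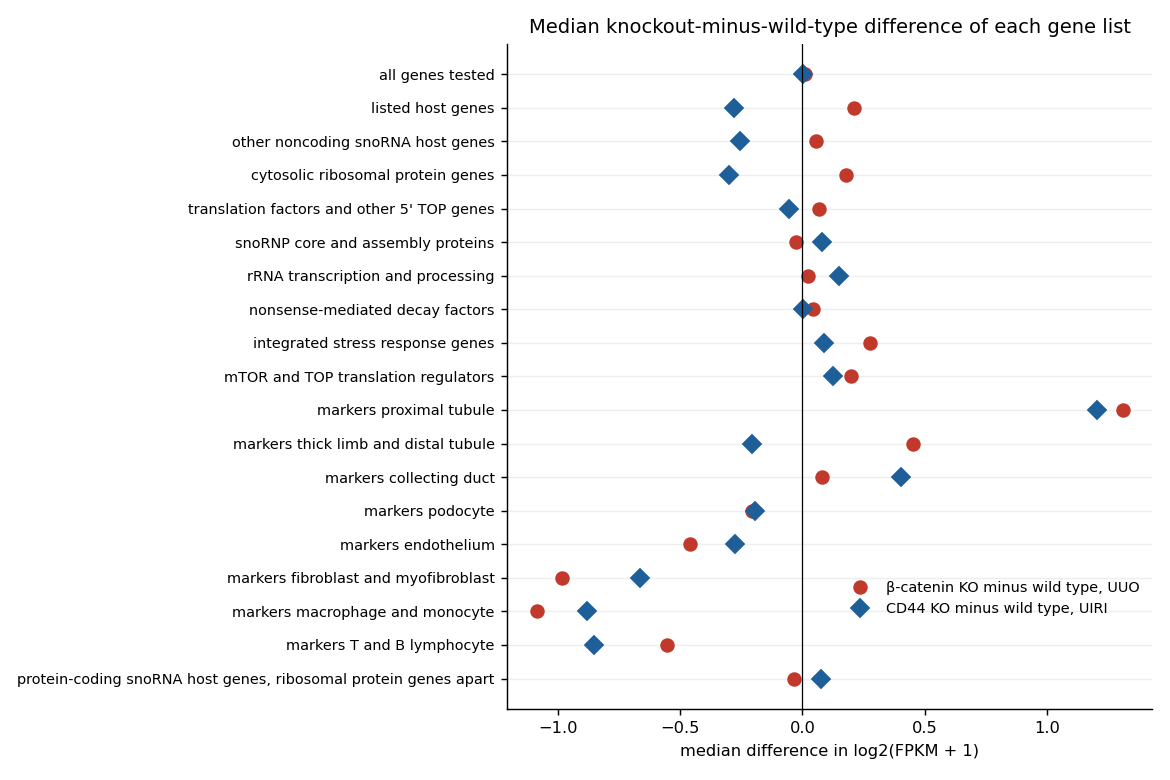
Median knockout-minus-wild-type difference in log2(FPKM + 1) of each gene list, after UUO (red circles) and UIRI (blue diamonds). The listed host genes (0.21 and −0.28), the other noncoding host genes and the ribosomal protein genes have a circle above 0 and a diamond below 0. With FPKM rescaled, the circle of the listed host genes moves to 0.0047. Those of the ribosomal protein genes, the other noncoding host genes and the translation factor list move to −0.04, −0.12 and −0.15. The median of all genes after UUO moves to −0.16. The thick limb and distal tubule markers (0.45 and −0.20) and the translation factor list (0.07 and −0.05) also have a circle above 0 and a diamond below 0. Proximal tubule and macrophage markers lie on the same side of 0 in both tables.

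Markers of several cell types differed between knockout and control in both tables. Of 10 proximal tubule markers, 8 rose in Bcat KO mice and 5 in the libraries labelled CD44 KO (medians 1.31 and 1.204). Their summed level was 1347 to 1806 FPKM against 556 to 679 FPKM after UUO, and 889 to 1674 FPKM against 527 to 578 FPKM after UIRI. Of 10 macrophage and monocyte markers, 9 fell in Bcat KO mice and 6 in the libraries labelled CD44 KO (medians −1.09 and −0.88), with sums of 531 to 630 FPKM against 1075 to 1312 FPKM, and 765 to 1368 FPKM against 2028 to 2107 FPKM. No defining marker of these 2 lists was at 0 in a whole group. Of 7 fibroblast markers, 3 fell after UUO and 1 after UIRI (medians −0.98 and −0.66), and 1 of 6 endothelial markers fell after UUO (median −0.46) and none was called after UIRI by limma (median −0.28, 2 lower at an unadjusted p under 0.05, voom 1 lower). Of 7 tested lymphocyte markers, 2 fell after UIRI, Cd3d and Cd3g, and limma called none after UUO (3 lower at an unadjusted p under 0.05, voom 2 lower). Of 6 thick limb and distal tubule markers tested after UUO, 1 rose (median 0.45), as did 1 of 6 collecting duct markers (median 0.08, and −0.08 with FPKM rescaled). After UIRI limma and voom called none of those 2 lists (medians −0.20 and 0.40, with 1 lower and 2 higher at an unadjusted p under 0.05) and none of 5 podocyte markers in either table (medians −0.21 and −0.19, 1 lower after UUO and none after UIRI at an unadjusted p under 0.05). Proximal tubule and macrophage markers thus moved in the same direction in both tables. The medians of the host genes lay on opposite sides of 0 (after UUO, at 0.0047 with FPKM rescaled). Those of the thick limb and distal tubule markers did so too (0.45 and −0.20). The part of these shifts in the host genes' levels was not tested.

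As a check on RNA that stays in the nucleus, Malat1 and Neat1 passed the filter and overlapped between knockout and control in both tables. Malat1 was at 143 ± 60.3 FPKM against 156 ± 19.8 FPKM after UUO and 120 ± 15.9 FPKM against 134 ± 23.3 FPKM after UIRI. Neat1 was at 83.2 ± 20.1 FPKM against 69.1 ± 2.90 FPKM and 65.9 ± 7.88 FPKM against 68.3 ± 5.97 FPKM. Neither passed the test in either table.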

How the data were processed

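Kidney RNA was extracted with Trizol, and libraries were made from 1 µg of total RNA with the NEBNext Ultra RNA kit. Per the labels' processing notes and the study's methods, the authors used HISAT2 2.0.5, featureCounts 1.5.0-p3 and DESeq2 1.20.0 on GRCm38. The deposited values are FPKM, which the authors calculated from gene length and read count, in 2 tables. FPKM times gene length gave whole reads for 100% of values above 0 in each library (within 0.01 read), and the depth term equalled size factors computed within each table. The 2 tables were therefore tested separately.

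Each knockout was compared with its own controls by limma 3.58.1 (R 4.3.3, trend, two-sided) on log2(FPKM + 1), for genes averaging 0.5 FPKM or more in the table, with Benjamini-Hochberg adjustment over all genes tested and a threshold of 0.05. With 3 libraries per group, p-values rest on the spread pooled across genes. The step was tested on simulated reads.

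The host genes and gene lists were chosen with earlier results of these data known. Named genes are all host genes, all other noncoding hosts, the targeted genes, and up to 4 genes per list with the smallest p. Not every gene that the rule names is reported. Of 14 other noncoding hosts listed, Snhg7 and Snhg16 were not matched by name. Gene structure came from GENCODE vM21, which held 99.77% of the gene identifiers. Transcription starts came from RefSeq. Alternatives were a pseudocount of 0.1, a filter at 1 FPKM or none, equal FPKM totals for all libraries, voom on the recovered whole reads, a block for replicate number, and each library left out. Python 3.11.15, pandas 2.3.3 and Matplotlib 3.10.9 were used.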

Additional observations from a re-analysis of the deposited data

Results flagged for a closer look

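Of the host genes, 2 stood on opposite sides of their controls in the 2 tables, with no overlap in either, and are given here for a closer look. For 2410006H16Rik the difference in log2(FPKM + 1) after UUO minus that after UIRI was 1.90, with 3 of 3 Bcat KO mice above all controls and 3 of 3 libraries labelled CD44 KO below all controls. For Snhg8 it was 0.84, with the same separation. Of 15489 genes tested in both tables, 1.07% stood apart in opposite directions. Neither difference between the tables was tested. Groups of 3 are too small to single out an outlying library by a test.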

How the results depend on the processing

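Without the filter on low values, limma called 473 genes in place of 1709 after UUO and 63 in place of 1001 after UIRI, and 2410006H16Rik was called in neither table. The voom fit called 1711 genes after UIRI. Leaving out 1 library at a time gave 228 to 2449 called genes after UUO. After UIRI it gave 2180 without library 2 of those labelled CD44 KO. Without libraries 1 and 3 of those it gave 1 and 2, and without controls 1, 2 and 3 it gave 5, 4 and 10. The UIRI calls of Mtor, Vldlr, Nol6, Utp4 and Tomm20 were kept in 5, 6, 4, 4 and 4 of 12 alternatives. With FPKM rescaled to the same total, the median difference after UUO became 0.0047 for the 7 host genes, −0.12 for other noncoding host genes and −0.039 for ribosomal protein genes. After UIRI it became −0.41 for the 7 host genes and −0.43 for ribosomal protein genes. The median of all genes became −0.16 after UUO and −0.10 after UIRI. Summed FPKM, which the rescaling makes equal, was 346240 to 420601 in Bcat KO mice and 304720 to 339519 in their controls. It was 374600 to 416532 in the libraries labelled CD44 KO and 344060 to 373866 in their controls. Why these totals differed was not tested. The Pearson r of host and ribosomal protein means in the UUO table fell to 0.49. With 1 library left out, the median of the 7 host genes ranged from 0.06 to 0.30 after UUO and from −0.32 to −0.15 after UIRI, and r from 0.75 to 0.91 and from 0.95 to 0.98.

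With the replicate number as a block, 0 genes were called after UIRI (2117 higher and 1575 lower at an unadjusted p under 0.05), so that 2410006H16Rik was not called there, and 992 genes were higher and 675 lower after UUO. The block does not change the differences. Same-numbered libraries correlated at 0.08, 0.20 and 0.04 after UUO and at −0.14, −0.03 and −0.03 after UIRI, and not every library correlated best with its own number, so the numbers were not taken to pair the libraries. Of 168 values of the host genes' differences under the alternatives, 151 kept within the replicate spread or, for 2410006H16Rik, kept the call. Another 5 moved by more, and in 12 the adjusted p of 2410006H16Rik was no longer under 0.05. Of its 12 alternatives in each table, this gene kept its call in 7 after UUO and 5 after UIRI. Calls gained were not counted as a change. After UUO, Snhg12 was called as higher in 1 of 6 leave-one-out fits and in 2 of 6 other alternatives, and Snhg5 as lower in 1 leave-one-out fit. Of 2717 values of the other named genes' differences under the alternatives, 241 lost a call and 0 called differences changed sign. Another 85, of differences not called, moved by more than the replicate spread. Changes of sign in differences not called were not counted. Depth limits Snhg3, with at most 7 reads, and the snoRNAs, with at most 16.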
